A study of Mus musculus with 8 samples.

Results

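The change in gene expression between the first and the second week of differentiation was examined in wild-type (WT) mouse embryoid bodies (EBs). Every gene with a level of 1 RPKM or more in either of the 2 libraries, WT EB week 2 and WT EB week 1, was included, which gave 12260 of the 20215 genes measured. RPKM is a read count divided by the length of the transcript and by the size of the library. The whole series holds 8 RNA sequencing libraries, 1 each for embryonic stem cells (ESCs) and for EBs at weeks 1, 2 and 3, in WT E14 cells and in cells labelled Uhrf1 KO. No agent distinguished the weeks: all EBs started as hanging drops in serum medium that held transferrin and ascorbic acid, and no leukemia inhibitory factor is named for that medium. The E14 line stands for 1 genotype, and whether a library pooled several EB cultures is not given in the sources used here.

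With 1 library at each week there is no replicate check and no test of the difference between weeks. A gene is said below to have risen or fallen when RPKM + 1 at week 2 was at least 1.5-fold higher or lower than at week 1, whereas a fold given for 1 gene is its RPKM at one week divided by that at the other. The bracketed 95% intervals are exact binomial (Clopper-Pearson) intervals of those ratios from the estimated reads, and cover counting error only. Estimated depth was 32150000 reads at week 2 and 47250000 at week 1, so that 1 read on a transcript of 1000 nt was worth 0.0311 and 0.0212 RPKM at those weeks. Across all 8 libraries the estimates ran between 13000000 and 166250000 reads. Uhrf1, which encodes the protein that guides DNA methylation to newly replicated DNA, stood at 36.8 RPKM at week 2 and 43.8 at week 1 in WT, and at 34.6 and 27.1 RPKM at weeks 2 and 1 in the libraries labelled Uhrf1 KO. The level of this transcript therefore did not separate the genotype labels at these weeks.

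EBs are floating aggregates in which pluripotent cells form derivatives of all germ layers without a body plan. Their outer layer is an endoderm like that of the yolk sac, which secretes the plasma proteins that the liver makes later in life. The first blood to form in the yolk sac is a wave of primitive red cells that carry embryonic globins, followed by macrophages. Beating heart muscle, vessels and connective tissue also form in EBs.

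Between week 1 and week 2, 2615 genes rose (21.3% of those compared) and 1228 fell (10.02%), together 31.3%, while 8417 (68.7%) stayed within 1.5-fold. The median log2 fold over all 12260 genes was 0.02. Of the risen genes 1055 were at 1 RPKM or more only at week 2, and of the fallen genes 186 were at 1 RPKM or more only at week 1. A 4-fold or larger change of RPKM + 1 was seen for 446 risen and 111 fallen genes. Risen genes were 68.0% of all changed genes. When week 2 was scaled to the RPKM total of week 1, the median of all genes moved by 0.21 on the log2 scale, 3443 genes rose, 685 fell, and risen genes were 83.4% of the changed ones. With globins left out of the totals the median moved by 0.17 and the share was 80.8%. Both totals include the small RNAs treated in the next paragraph, which held 6.63% of the RPKM total at week 2 and 13.5% at week 1. Totals without small RNAs were not tried. Scaling by the median of ratios moved the median by 0.02, with 2680 risen and 1148 fallen genes. At the edge of the 1 RPKM limit, Cd247 (1 RPKM at week 2 and 0.739 at week 1) and Ager (0.463 and 1) lay just inside, and Col13a1 (0.9999 and 0.6444) and Itih3 (0.9995 and 0.0517) just outside.

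**Figure D1:**
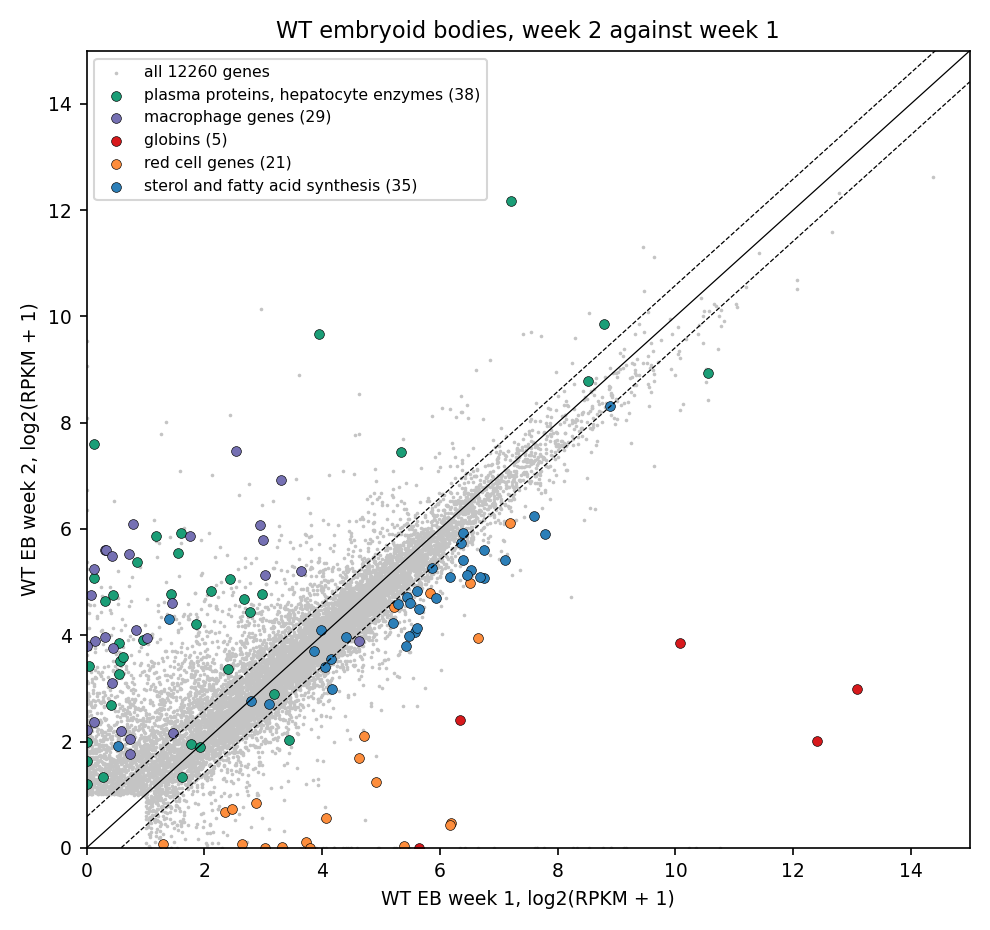
Levels at week 2 (vertical axis) against week 1 (horizontal axis) in WT EBs, both as log2(RPKM + 1), for all 12260 genes (grey points) with 5 gene lists in colour. The solid line marks equal levels and the dashed lines 1.5-fold. All 5 globins and 21 red cell genes lie below the lower dashed line, and 28 of 29 macrophage genes above the upper one.

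Small RNAs took many of the extreme places. Of the 12 genes with the highest log2 fold among those at 5 RPKM or more, 6 were small nucleolar, nuclear or micro RNAs, and of the 12 with the lowest, 10 were. Among the 107 small RNAs compared, 12 rose and 74 fell, and they held 6.63% of the RPKM total at week 2 and 13.5% at week 1. Several were listed at 0 in 1 of the weeks, such as Scarna2 at 744 RPKM at week 2 and 0 at week 1, and Snord49a at 0 at week 2 and 1740 RPKM at week 1. These RNAs are shorter than a sequenced fragment and mostly lack a poly(A) tail, so their levels are given as listed and no ratio of RPKM is given for them. A listed 0 can also be a failed estimate: Ndufs5, a subunit of the respiratory chain that every cell uses, was listed at 40.5 RPKM at week 2 and 0.0003 at week 1. A ranking without small RNAs was added after the values were seen. Its 12 highest genes were Alb, Spp1, Lum, Dcn, Gpnmb, Trf, Bgn, Ndufs5, C1qb, Fcgr2b, Apoa2 and C1qc. Among its 12 lowest genes were Hba-x, Hbb-bh1, Hbb-y, Alas2, Hba-a2, Slc4a1, Cfc1, Pyy, Hbb-b1, Trim10 and Nfe2, and 10 of the 12 are globin or red cell genes in the lists used here.

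On the scale of log2 of RPKM + 1, the embryonic globins Hba-x, Hbb-bh1 and Hbb-y had the lowest values of all genes other than small RNAs (-10.39, -10.09 and -6.23). Hbb-bh1, an embryonic beta-type globin (chr7:110990150-110991678, mm9), stood at 6.99 RPKM at week 2 and 8678 RPKM at week 1, and was 1242-fold lower at week 2 (1051 to 1478). Hba-x, the embryonic alpha-type globin (chr11:32176400-32178116), stood at 3.05 and 5453 RPKM at weeks 2 and 1 (1787-fold lower, 1426 to 2245). Both were among the 10 most abundant transcripts of the pair of libraries, through their week 1 level. Hbb-y, also an embryonic beta-type globin, fell to 13.4 RPKM at week 2, against 1078 at week 1 (80.4-fold lower, 71.5 to 90.6). The adult globins were far less abundant at week 1: Hbb-b1 stood at 4.28 and 80 RPKM and Hba-a2 at 0.0002, which is less than 1 read, and 49.1 RPKM at weeks 2 and 1. Adult alpha and beta globins have near-identical copies, so their split between genes is uncertain. Together the 5 globins held 0.00737% of the RPKM total at week 2 and 3.46% at week 1.

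All 21 detected genes of the red cell membrane, of haem synthesis and of erythroid transcription fell, with a median log2 fold of -2.69. Slc4a1, the anion exchanger of the red cell membrane, stood at 0.0258 RPKM at week 2 and 40.7 at week 1 (1576-fold lower, 579.9 to 5452), with about 4 reads at week 2. Alas2, the first and rate-limiting enzyme of haem synthesis in red cells, stood at 0.39 and 72.1 RPKM (185-fold lower, 124 to 278). The transcription factors Klf1 (0.0845 and 12.2 RPKM), Gata1 (0.48 and 15.7) and Nfe2 (1.37 and 29.1) fell with them, while the transferrin receptor Tfrc, which all dividing cells use, fell by less (68.5 and 145 RPKM). In bulk RNA of this kind, fewer cells of a type and less RNA per cell cannot be told apart. Of other blood lineages only 6 genes were detected: the megakaryocyte genes Itga2b (1.26 and 14.2 RPKM) and Gp1ba (0.656 and 3.71) and the granulocyte gene Mpo (0 and 1.88) fell, and Ppbp (5 and 1.28) and Cd4 (1.07 and 0.0067) rose.

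The letters before the start sites of Hbb-y and Alas2 are shown because both genes fell with the red cell lists and their promoters hold strings read by erythroid factors in textbook accounts. Capitals mark AGATAA and the related string TGATAA, as bound by GATA factors such as Gata1. They also mark CCACCC, as bound by Krueppel-like factors such as Klf1. The last string marked is CCAAT, as bound by the factor Nfy. All were searched on either strand, and the second GATA string and the Krueppel-like string were added after the letters had been seen. The stretches run from 200 bases before the RefSeq start to the base before the first annotated transcript.
Hbb-y: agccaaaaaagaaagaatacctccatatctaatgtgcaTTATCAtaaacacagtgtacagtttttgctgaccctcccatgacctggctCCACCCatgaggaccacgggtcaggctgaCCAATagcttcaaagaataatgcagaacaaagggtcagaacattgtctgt
Alas2: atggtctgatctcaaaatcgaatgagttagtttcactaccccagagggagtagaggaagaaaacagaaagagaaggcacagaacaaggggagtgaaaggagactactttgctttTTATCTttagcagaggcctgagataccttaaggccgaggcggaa
The Hbb-y stretch lies at chr7:111001755-111001921 on the minus strand and the Alas2 stretch at chrX:146981760-146981917 on the plus strand of mm9. In Hbb-y, the second GATA string was read on the other strand 162 to 157 bases before the start, the Krueppel-like string at 112 to 107 bases and the Nfy string at 83 to 79 bases. In Alas2, the first GATA string was read on the other strand 86 to 81 bases before the start. Over the 250 bases before the start of all 27025 genes in the promoter table, the first GATA string was found in 10.3%, the second in 8.16%, the Krueppel-like string in 27.7% and the Nfy string in 34.5%. Over the 9661 matched promoters of the genes compared, the shares were 6.11%, 3.78%, 33.7% and 36.7% in the same order, so each alone occurs in many genes. Promoters were matched for 17 of the 26 fallen globin and red cell genes, and the count of strings over this set is void for that reason.

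Genes of plasma proteins and hepatocyte enzymes formed one of the strongest risen lists, with 31 of 38 detected members risen, 2 fallen and a median log2 fold of 2.49. Alb, serum albumin, had the highest log2 fold of all genes other than small RNAs, at 192 RPKM at week 2 and 0.0945 at week 1 (2034-fold, 1086 to 4509), with about 9 reads at week 1. Afp, alpha-fetoprotein, the main serum protein of yolk sac endoderm and fetal liver, stood at 4602 RPKM at week 2 and 147 at week 1 (31.4-fold, 30.8 to 31.9), and was among the 10 most abundant transcripts. Trf, the iron carrier transferrin, stood at 809 and 14.5 RPKM at weeks 2 and 1 (55.6-fold, 53.2 to 58.1). The fibrinogen chain Fga (59.7 and 2.04 RPKM) and the kininogen Kng1 (32.8 and 0.0863) rose as well. The 5 copies of the alpha-1 antitrypsin gene all rose, from Serpina1e at 5.41 and 0.324 RPKM to Serpina1b at 14 and 0.937, but these copies are near-identical and their split is uncertain. The fallen members were Spink3, a trypsin inhibitor (488 and 1510 RPKM), and Tdo2, which breaks down tryptophan (3.07 and 9.77). Ttr, the thyroxine carrier, was high at both weeks (442 and 366 RPKM) and stayed within 1.5-fold, as did F5, F10, Amn and Arg1.

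Of 15 detected apolipoprotein and lipoprotein assembly genes, 9 rose and none fell, with a median log2 fold of 0.78. Apoa2 stood at 475 RPKM at week 2 and 11.2 at week 1 (42.4-fold, 37.6 to 48), Apoa1 at 834 and 186 RPKM (4.5-fold, 4.39 to 4.61) and Apoa4 at 49.4 and 3.83 RPKM (12.9-fold, 11.5 to 14.5). Apoe (668 and 556 RPKM) and Apob (75.4 and 58.5), the structural protein of large lipoproteins, stayed within 1.5-fold. Rbp4, the retinol carrier, and Cubn, an endocytic receptor of the yolk sac and kidney, rose to 926 and 24.8 RPKM at week 2, against 443 and 5.4 at week 1. Among 18 endoderm transcription factors 9 rose and 2 fell (median log2 fold 0.61). Foxa1 (22.9 and 6.05 RPKM), Hnf4a (21.6 and 7.49) and Cebpa (5.17 and 0.31) rose, Hhex (8.93 and 16.1) and Sox17 (3.34 and 5.9) fell, and Gata4 (24.7 and 30.8) and Gata6 (22.6 and 26.1) stayed within 1.5-fold.

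The promoters of Alb and Afp are shown because these neighbouring genes of chromosome 5 (Alb at chr5:90889915-90905629, Afp at chr5:90919740-90937933) both rose and both hold a short string of the hepatocyte factor Hnf1. Each stretch holds the 200 bases before the RefSeq start. Capitals mark GTTAAT, a part of the site that Hnf1 binds, and also CAAAGTC, a part of the site that Hnf4 binds. The TATA box was searched as TATAAA, and the Nfy and Krueppel-like strings are marked as before. All were searched on either strand, and none of the marked strings overlap.
Alb: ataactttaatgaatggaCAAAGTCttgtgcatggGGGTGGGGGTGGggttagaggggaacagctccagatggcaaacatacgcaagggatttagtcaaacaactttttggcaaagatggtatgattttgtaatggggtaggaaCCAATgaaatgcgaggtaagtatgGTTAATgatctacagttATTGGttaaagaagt
Afp: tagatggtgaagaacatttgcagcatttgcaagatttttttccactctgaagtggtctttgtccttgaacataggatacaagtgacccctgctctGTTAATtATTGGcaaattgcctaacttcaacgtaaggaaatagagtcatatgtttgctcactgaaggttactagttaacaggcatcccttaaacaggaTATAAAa
The stretches lie at chr5:90889696-90889895 and chr5:90919540-90919739 on the plus strand of mm9. TATAAA was read 7 to 2 bases before the RefSeq start of Afp, and whether it acts as a TATA box was not tested. The Hnf1 string was read 32 to 27 bases before the start of Alb and 105 to 100 bases before that of Afp. It was found in the 250 bases before the start in 11 of 32 matched promoters of the 40 risen plasma protein and apolipoprotein genes (34.4%), and in 6.52% of all promoters in the table. The Hnf4 string was found in 15.6% and 3.80% of the same sets, the Nfy string in 43.8% and 34.5%, the Krueppel-like string in 53.1% and 27.7%, the TATA box in 12.5% and 13%, and the first and second GATA strings in 12.5% and 9.38% of the risen genes and in 10.3% and 8.16% of all. The string CACACCC was found in none of the 32 and in 6.85% of all. The other 8 of the 40 genes had no matched promoter and are not counted. Of the 12260 genes compared, 9661 had a matched promoter, and there several shares were lower than in the whole table. They were 3.97% for the Hnf1 string, 3.42% for Hnf4, 6.59% for the TATA box, and 6.11% and 3.78% for the 2 GATA strings. For the Nfy, Krueppel-like and CACACCC strings they were 36.7%, 33.7% and 7.26%. These shares describe letters and do not show that a factor binds.

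Genes of the gut followed the same direction, at lower levels. Of 23 detected stomach, intestine and pancreas genes, 19 rose and 1 fell (median log2 fold 1.59). The goblet cell peptide Tff3 stood at 129 RPKM at week 2 and 3.35 at week 1 (38.5-fold, 30.7 to 48.9), the galectin Lgals2 at 136 and 19.5 RPKM, and the fatty acid carriers Fabp1 and Fabp2 at 16.2 and 11.8 RPKM at week 2, against 0.201 and 0.457 at week 1. The hormone gene Sst fell (0.0711 and 3.67 RPKM). Basement membrane and parietal endoderm genes rose in 19 of 25 cases and fell in none (median 0.93), with the laminin chains Lamc1 (71.5 and 24.8 RPKM) and Lamb1 (86.9 and 33.2) and the collagen IV chain Col4a1 (157 and 81.8). With a 2-fold threshold 9 of the 25 rose. In the short lung, airway and cilia list 3 of 5 rose, and in the kidney and urogenital list 7 of 12 rose and 3 fell.

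Macrophage genes rose in 28 of 29 cases and had the highest median log2 fold of all 57 lists, 3.27. The complement C1q chains, which macrophages secrete, stood at 37 RPKM (C1qa), 67.7 (C1qb) and 47.7 (C1qc) at week 2 and at 0.088, 0.721 and 0.25 RPKM at week 1. C1qb was 93.9-fold higher (68 to 134). The lysozyme Lyz2 stood at 176 and 4.8 RPKM (36.8-fold, 32.7 to 41.4), the receptor of the macrophage growth factor Csf1r at 23.3 and 1.73 RPKM, and the Fc receptor Fcgr2b at 47.8 and 0.242 RPKM. The chemokine gene Pf4, which megakaryocytes also express, was the exception and fell (13.8 and 23.8 RPKM). The macrophage growth factor Csf1 rose as well (15.1 and 2.73 RPKM). Lysosome and endocytosis genes rose in 22 of 39 cases and fell in none (median 0.67). Gpnmb, a glycoprotein of macrophage lysosomes, stood at 91.5 and 0.381 RPKM (239.9-fold, 190.3 to 311), and the cathepsin Ctss at 45.1 and 0.654.

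Matrix genes of connective tissue rose nearly as a block. Of 19 detected fibrillar and beaded collagens and crosslinking enzymes 18 rose and none fell (median 2.18), and of 36 mesenchymal matrix and stroma genes 29 rose and 1 fell (median 1.58). Col3a1, a fibrillar collagen of soft tissue, stood at 369 RPKM at week 2 and 23.8 at week 1 (15.5-fold, 15.1 to 15.9), Col1a1 at 95.5 and 12.6 RPKM, and the crosslinking enzyme Lox at 22.7 and 0.0951 RPKM. Lox was 239-fold higher (155 to 394). The small proteoglycans that coat collagen fibres rose as well: Lum at 258 and 1.53 RPKM (169-fold, 144 to 199.7), Dcn at 219 and 1.41 RPKM (156-fold, 129.6 to 188) and Bgn at 136 and 2.01 RPKM (67.7-fold, 59.4 to 77.7). Mesenchymal genes that were already high stayed within 1.5-fold, such as Vim (415 and 470 RPKM) and Twist1 (16.9 and 12.4), and the transcription factor Prrx2 fell (4.07 and 9.64). ESCs of this line could be kept on fibroblast feeder cells. In the WT ESC library Lum was listed at 0, Dcn at 0.027 and Col3a1 at 0.0528 RPKM. The whole mesenchymal list summed to 511 RPKM there and the collagen list to 199. Whether feeder cells had a part in the levels of the EBs was not tested.

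Spp1, osteopontin, a phosphoprotein made by bone cells, macrophages and epithelia, stood at 1126 RPKM at week 2 and 6.79 at week 1 (166-fold, 151 to 182). In the cartilage and bone list, which holds Spp1, 7 of 11 rose and 1 fell (median 0.82), for example Col11a1 (8.61 and 2.42 RPKM) and Sox9 (4.94 and 2.37). In the fat cell list 6 of 10 rose, among them the fatty acid carrier Fabp4 (26.8 and 0.0442 RPKM) and the nuclear receptor Pparg (5.05 and 0.608), while the desaturase Scd1 fell (33.4 and 102). Of 33 matrix proteases and inhibitors 24 rose and none fell (median 1.17), including Mmp2 (109 and 38.7 RPKM), Ctsb (279 and 57.4) and the urokinase Plau (44.8 and 4.21).

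Heart muscle genes split by role. Of 20 cardiac transcription factors none rose and 11 fell (median log2 fold -0.67), and 8 fell after scaling to the RPKM total. Hand1 stood at 7.08 RPKM at week 2 and 52.9 at week 1 (7.47-fold lower, 6.77 to 8.27), Gata5 at 1.31 and 12.3 RPKM (9.44-fold lower, 7.91 to 11.3), Tbx20 at 15 and 38 RPKM and Nkx2-5 at 1.66 and 3.14. Sarcomere genes mostly stayed within 1.5-fold (14 of 22, with 6 risen and 2 fallen, median 0.13): the cardiac actin Actc1 stood at 486 and 506 RPKM and troponin T Tnnt2 at 264 and 303. Within the troponin I pair, the fetal form Tnni1 fell (74.1 and 172 RPKM) and the mature cardiac form Tnni3 rose (64.2 and 31.4). The ventricular light chain Myl2 rose to 322 RPKM at week 2, against 86.8 at week 1 (3.71-fold, 3.57 to 3.86), and the atrial light chains Myl7 (436 and 1467 RPKM) and Myl4 (191 and 399) fell. Other chamber genes did not divide by chamber: the atrial genes Nr2f2 (24 and 2.98 RPKM) and Nppa (3.6 and 0.649) rose, Sln rose to 4 RPKM and was listed at 0 at week 1, the ventricular gene Hey2 fell (2.45 and 9.77), and Myl3 (55.8 and 61.1) and Myh7 (26.2 and 30.7) stayed within 1.5-fold. Of 18 chamber genes 7 rose and 4 fell, with a median log2 fold of -0.04 that turned to 0.15 when scaled to the RPKM total.

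Calcium handling genes of the heart rose in 8 of 17 cases and fell in 1 (median 0.46). Pln, the brake on the calcium pump of the sarcoplasmic reticulum, stood at 38 RPKM at week 2 and 0.871 at week 1 (43.6-fold, 35.8 to 53.7), while the pump itself, Atp2a2, stood at 136 and 153. Casq2, the calcium buffer, rose (8.38 and 0.184 RPKM), as did myoglobin Mb (10.9 and 1.42), and the release channel Ryr2 fell (1.74 and 4.8). In smooth muscle 7 of 15 rose and 3 fell. Pln belongs to this list too and is counted in both, and its rise cannot be assigned to 1 tissue here. Actg2, the enteric actin, stood at 29.6 and 0.643 RPKM (46-fold, 33.3 to 63.7) and the light chain Myl9 at 207 and 40.6, whereas Acta2, which early heart muscle also expresses, fell (118 and 276). Of 8 skeletal muscle genes 1 rose and 4 fell.

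Endothelial genes fell more often than they rose, with 17 of 32 fallen and 6 risen (median log2 fold -0.61), and 12 fallen after scaling to the RPKM total. The receptors Tek (7.3 and 30.3 RPKM, 4.15-fold lower, 3.89 to 4.43) and Kdr (16.7 and 49.7 RPKM, 2.97-fold lower, 2.86 to 3.09) fell, the junction gene Cdh5 fell by less (50.6 and 78.2), and Pecam1 stayed within 1.5-fold (36.2 and 52). The risen members were Apln (7.15 and 0.629 RPKM), a peptide of sprouting vessel tips, Esm1 (9.73 and 3.02), Emcn (29.5 and 15.6) and the scavenger and hyaluronan receptors Stab1 (7.53 and 2.73), Stab2 (1.99 and 0.307) and Lyve1 (13.9 and 5.06), which mark sinusoidal and lymphatic endothelium and, for Stab1 and Lyve1, some macrophages.

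Epithelial genes of the surface ectoderm rose in 30 of 37 cases and fell in none (median 1.27). Markers of basal, stratifying epithelium were near 0 at week 1: Krt15 stood at 29.1 RPKM at week 2 and 0.178 at week 1 (163-fold, 99.4 to 307), Krt5 at 8.03 and 0.068 RPKM, and the basal cell transcription factor Trp63 at 7.46 and 0.0838 RPKM (89-fold, 58.7 to 146). General epithelial genes rose less, such as Cdh1 (141 and 50.5 RPKM) and Epcam (102 and 28.4), and the simple keratins Krt8 (108 and 119.6) and Krt18 (245 and 224) stayed within 1.5-fold.

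Genes of the neural lists rose more often than they fell, mostly at low levels. Of 16 neural progenitor genes 9 rose and 1 fell (median 0.74), and with a 2-fold threshold 3 rose and none fell. The radial glia fatty acid carrier Fabp7 stood at 57 RPKM at week 2 and 1.66 at week 1 (34.3-fold, 27 to 44.4) and Sox2 at 21.9 and 6.39, but the other risen progenitor genes except Nes (17.9 and 10.1) stayed under 5 RPKM at both weeks, and Pax6 fell (0.194 and 1.09). Among neuronal genes 6 of 15 rose and 2 fell, with Tubb3 at 5.88 and 1.62 RPKM. Glia and myelin genes rose in 4 of 7 cases, and neural crest genes in 6 of 14 with 3 fallen. Hox genes of positions 1 to 5 fell in 2 of 4 cases and those of positions 6 to 13 in 2 of 11, with 1 risen.

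The pluripotency list split in both directions, with 17 of 31 risen and 9 fallen (median 0.61). With a 2-fold threshold 5 rose and 4 fell. Klf5, which epithelia also express, stood at 15.2 RPKM at week 2 and 1.15 at week 1, Pou5f1 at 14.9 and 9.42 (1.58-fold, 1.41 to 1.77) and Dppa5a at 70.2 and 26.5. These levels were low beside those of ESCs, where Pou5f1 stood at 705 RPKM, and the summed level of the list was 266 RPKM at week 2 and 259.5 at week 1, against 4186 in ESCs. The RNA-binding proteins Lin28a (19.9 and 84 RPKM, 4.22-fold lower, 4.04 to 4.42) and Lin28b (2.96 and 17.3) fell. Early mesoderm genes fell in 4 of 8 cases and rose in 2, with brachyury T at 6.02 and 0.618 RPKM. Of 14 germ cell genes 8 rose and 3 fell, led by the X-linked placental and germ cell homeobox genes Rhox9 (22.7 and 1.31 RPKM) and Rhox6 (26.7 and 2.57).

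Trophoblast genes rose in 8 of 14 cases and fell in 3 (median 1.46). The placental cathepsin Ctsj stood at 22.7 RPKM at week 2 and 0.0362 at week 1, which was about 2 reads (626-fold, 189 to 5651), and the spongiotrophoblast gene Tpbpa at 6.32 RPKM at week 2 and was listed at 0 at week 1. The prolactin family genes Prl2c2 (6.52 and 0.0165 RPKM) and Prl3b1 (5.45 and 0.106) rose. The cathepsin and prolactin clusters and the Rhox genes hold close paralogs, so their split between members is uncertain. Plac1 (4.51 and 16.5 RPKM), Gata3 (1.07 and 3.28) and Hand1 fell.

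Secreted signals and their inhibitors changed in both directions. In the Wnt list 19 of 35 rose and 6 fell (median 0.67). The ligand Wnt2 fell (3.12 RPKM at week 2 and 21.1 at week 1, 6.79-fold lower, 5.91 to 7.81), and of the inhibitors Dkk1 (1.85 and 10.9) and Frzb (3.66 and 20.4) fell while Dkk2 (17.4 and 0.562, 31-fold, 25.3 to 38.4), Dkk3 (30.9 and 3.89) and Sfrp1 (66.8 and 18.3) rose. In the TGF-beta and Bmp list 19 of 36 rose and 7 fell (median 0.62). The ligands Tgfb3 (6.66 and 0.231 RPKM) and Gdf10 (7.26 and 0.0921) and the receptor Tgfbr2 (34.2 and 12.1) rose, and Bmp2 (3.88 and 14.8) and the Bmp targets Id1 (18.4 and 40.8) and Id3 (22.5 and 64) fell. Of 34 Fgf, Hedgehog and Notch genes 10 rose and 4 fell (median 0.22), with the ligand Shh (18.8 and 2.34 RPKM) and its targets Hhip (10.5 and 1.13), Ptch1 (23.3 and 14) and Gli1 (3.62 and 1.95) all risen.

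Growth factor and imprinted genes included some of the most abundant transcripts. Igf2, a fetal growth factor expressed from the paternal copy (chr7:149836673-149852721), stood at 2517 RPKM at week 2 and 701 at week 1 (3.59-fold, 3.57 to 3.61). Its neighbour H19, a noncoding RNA of the maternal copy, stood at 345 and 1499 RPKM (4.34-fold lower, 4.28 to 4.4). Of 6 detected Igf-binding proteins 5 rose, among them Igfbp7 (53.5 and 1.25 RPKM), Igfbp1 (24.7 and 1.04) and Igfbp3 (131 and 22.2). Igfbp5 (191 and 126) was just past the threshold and Igfbp4 (164 and 139) stayed within 1.5-fold. In the whole Igf list 9 of 19 rose and 1 fell (median 0.47). Of 33 imprinted genes 7 rose and 11 fell (median -0.39). The noncoding RNAs Meg3 (15.3 and 64.6 RPKM) and Rian (78.2 and 188) of 1 cluster, and Nnat (36.3 and 163) and Grb10 (7.04 and 31.3), were among the fallen.

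Interferon response genes rose in 40 of 41 cases (median 1.98). Ifit3 stood at 25.5 RPKM at week 2 and 0.431 at week 1 (59.3-fold, 43 to 86.6), Ifit1 at 20.4 and 0.333, Oasl2 at 23.5 and 0.23, and the ubiquitin-like Isg15 at 43.7 and 3.53. Transcription factors of the pathway rose too: Stat2 (15.2 and 8.45 RPKM), Irf9 (19.6 and 4.49) and Irf7 (8.65 and 0.396). Ifitm1 was the fallen member (19.2 and 33.4 RPKM). All 24 detected genes of MHC, complement and acute phase rose (median 2.06): B2m, the light chain of MHC class I, stood at 818 and 169.5 RPKM (4.82-fold, 4.69 to 4.96), H2-D1 at 54.6 and 8.63, and the complement regulator Cfi at 33.1 and 0.134 (247-fold, 146 to 470.0). Chemokines and cytokines rose in 17 of 19 cases and fell in none (median 1.32), including Ccl2 (14.7 and 0.898 RPKM) and Cxcl12 (57.9 and 12.2). Macrophage genes rose in the same pair of libraries, as given above, and their part in these lists was not tested.

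Among metabolic lists, sterol and fatty acid synthesis moved the most. Of 35 genes 25 fell and 2 rose (median log2 fold -0.98), and 19 fell after scaling to the RPKM total. The fallen genes spanned the pathway: Fdps, which makes farnesyl diphosphate, stood at 59 RPKM at week 2 and 219.7 at week 1 (3.72-fold lower, 3.56 to 3.89), the isomerase Idi1 at 41.9 and 137, and the fatty acid synthase Fasn at 13 and 41.7. The risen members were Abca1 (18.7 and 1.64 RPKM, 11.4-fold, 10.6 to 12.2) and Abcg1 (2.79 and 0.45), transporters that export cholesterol from cells, macrophages included. Srebf2, the transcription factor that drives these enzymes, fell (27.6 and 47.9 RPKM), and Srebf1 stayed within 1.5-fold (12 and 13.6).

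Genes of ribosomes fell as a group, though the count depended on the scaling. Of 74 ribosomal protein genes 37 fell and 1 rose (median -0.60), against 17 fallen (median -0.37) after scaling to the RPKM total and 20 with globins left out of it. With a 2-fold threshold and no scaling 6 fell and 1 rose. Rps18 stood at 1033 RPKM at week 2 and 1701 at week 1 (1.65-fold lower, 1.63 to 1.67) and Rpl37 at 47 and 131. Ribosomal protein genes have many processed pseudogenes, so their reads may be split. Ribosome biogenesis genes fell in 14 of 30 cases and rose in none (median -0.56), and in 8 after scaling. Npm1, a nucleolar chaperone, stood at 720.0 and 1414 RPKM (1.96-fold lower, 1.94 to 1.99).

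Genes of proliferation hardly moved. All 42 mitosis genes stayed within 1.5-fold (median 0.07), for example Cdk1 (60 RPKM at week 2 and 52.6 at week 1) and Top2a (117 and 126). Of 45 DNA replication genes 4 fell and none rose (median -0.25), and none fell after scaling to the RPKM total. Respiratory chain and ATP synthase genes stayed within 1.5-fold in 72 of 75 cases (median -0.08, which turned to 0.15 after scaling). In the cell cycle inhibitor and p53 target list 7 of 30 rose and 8 fell: the inhibitors Cdkn2a (5.7 and 1.67 RPKM), Cdkn2b (6.9 and 2.01) and Cdkn2c (9.5 and 2.01) rose and the p53 targets Bax (53.2 and 88.2) and Ccng1 (148 and 274) fell, but the p53-linked genes Perp (41.1 and 14.5), Trp53i11 (13.5 and 5.39), Fas (5.38 and 3.1) and Plk3 (1.92 and 0.937) rose. After scaling to the RPKM total 3 of the list fell and 8 rose. Of 36 hypoxia and glycolysis genes 11 rose and 3 fell, the fallen ones being the glucose transporters Slc2a1 (54.8 and 134) and Slc2a3 (195 and 604) and the enzyme Pfkfb4 (1.62 and 6.93).

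The medians of the other lists lay between -0.19 and 0.23. Stress response genes fell in 6 of 35 cases and rose in 2 (median -0.14), immediate early genes rose in 8 of 21 and fell in 3 (median 0.23), DNA methylation genes rose in 1 of 27 and fell in 4 (median -0.03), with Dnmt3b at 5.46 and 11.6 RPKM, and COMPASS and Polycomb genes rose in 4 of 36 (median -0.19). Of 6 histone genes 2 rose. Among 36 reference genes 28 stayed within 1.5-fold (median -0.15), 3 rose, led by B2m, and 5 fell. Actb stood at 518 and 535 RPKM, Hprt at 51.1 and 52.5 and Tbp at 16.5 and 18.5. The medians of the stress, DNA methylation, COMPASS and Polycomb and reference lists turned positive after scaling to the RPKM total.

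**Figure D2:**
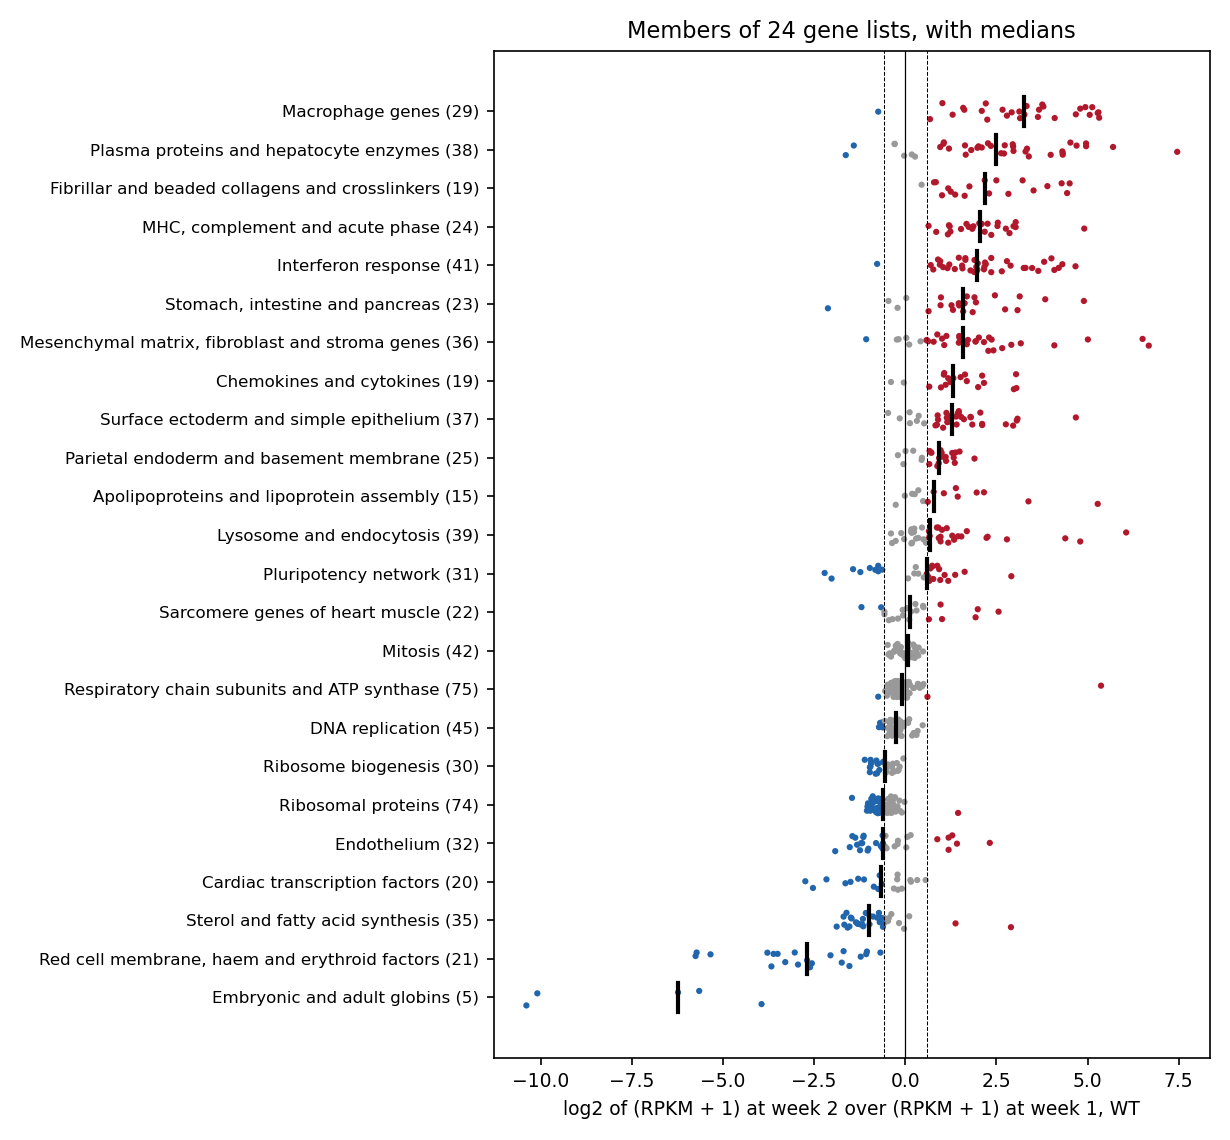
Log2 of RPKM + 1 at week 2 over week 1 (horizontal axis) for each detected member of 24 gene lists in WT EBs, with the number of members in brackets. Points are genes (red risen, blue fallen, grey within 1.5-fold), black bars are medians, and dashed lines mark 1.5-fold. Medians run from 3.27 for macrophage genes to -6.23 for globins.

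The week 1 and week 2 levels were read against the whole WT course, as levels only. Hbb-bh1 stood at 0.0527 RPKM in ESCs, 8678 at week 1, 6.99 at week 2 and 48.4 at week 3. Its level was highest at week 1, and higher at week 3 than at week 2. The 5 globins together summed to 0.0662, 15339, 27.7 and 99.9 RPKM at these stages. Alas2 followed the same order, at 0.0731, 72.1, 0.39 and 0.606 RPKM. Alb stood at 0.0114, 0.0945, 192 and 269 RPKM and remained high at week 3, as did Spp1 (179, 6.79, 1126 and 1091), Lum (0, 1.53, 258 and 155) and Col3a1 (0.0528, 23.8, 369 and 319). Afp stood at 0.0168, 147, 4602 and 824 RPKM, and Trf at 6.8, 14.5, 809 and 194. C1qb (0, 0.721, 67.7 and 17.9 RPKM), Ifit3 (0.012, 0.431, 25.5 and 4.01) and Ctsj (0.0049, 0.0362, 22.7 and 1.21) were likewise highest at week 2.

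Summed levels of whole lists did not always follow the single genes. Interferon response genes summed to 725 RPKM in ESCs, 178 at week 1, 858 at week 2 and 450.2 at week 3. That sum was thus high in ESCs as well, but a sum can rest on a few abundant members. Ifit3 was low in ESCs, as given above. The trophoblast list summed to 141, 566, 445 and 177 RPKM, with the highest sum at week 1, although 8 of its 14 detected members rose after that week. The placental genes Ctsj, Prl2c2 and Tpbpa stood at 0.0362, 0.0165 and 0 RPKM at week 1, so they did not make up that sum. Macrophage genes summed to 58.9 RPKM in ESCs, 82.7 at week 1, 1011 at week 2 and 332 at week 3, and plasma protein and hepatocyte genes to 36.8, 2592, 8205 and 2456 RPKM. Sterol and fatty acid synthesis genes summed to 1426, 2500, 1229 and 1089 RPKM, so that week 1 was the high point of that list. The ribosomal proteins summed to 49617, 47475, 31458 and 35690 RPKM. Mitosis genes summed to 3078 RPKM in ESCs and to 1628, 1632 and 1386 at weeks 1 to 3. Each stage is 1 library, and the spread between cultures of 1 stage is unknown.

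**Figure D3:**
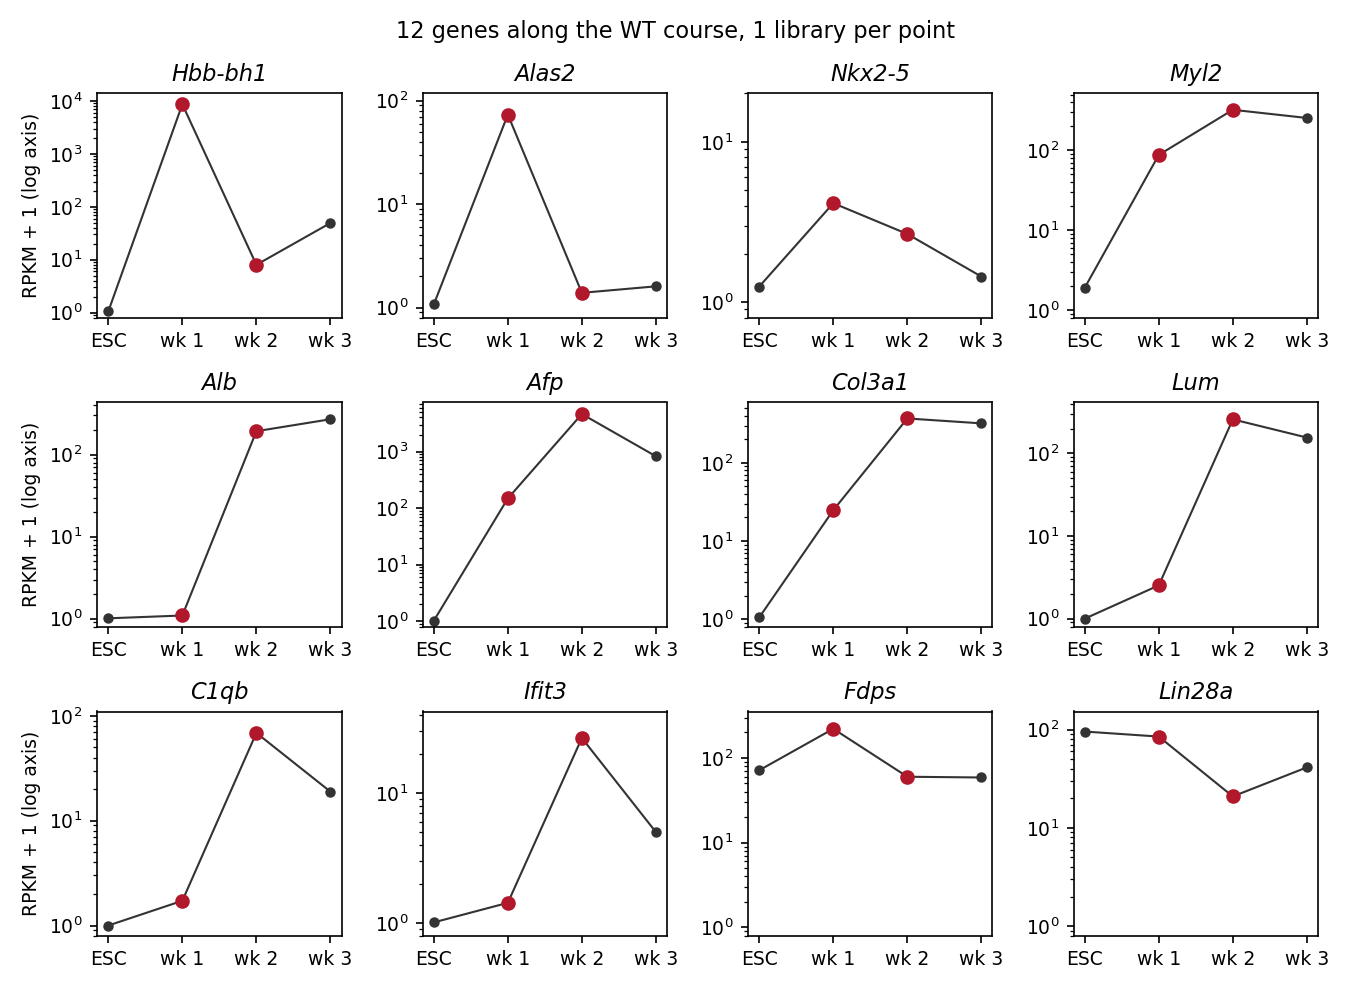
RPKM + 1 on a log axis for 12 genes in WT ESCs and in WT EBs at weeks 1, 2 and 3, 1 library per point, with weeks 1 and 2 in red. Hbb-bh1 and Alas2 peak at week 1, Afp, C1qb and Ifit3 at week 2, and Alb is at 192 RPKM at week 2 and 269 at week 3.

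The same weeks were compared in the EBs labelled Uhrf1 KO, which share no library with the WT comparison. There 12702 genes were at 1 RPKM or more in either week, of which 2699 rose (21.2%) and 929 fell (7.31%), together 28.6%. Of the genes that rose in WT, 1697 also rose in the KO-labelled EBs, which is 64.9% of the WT and 62.9% of the KO-labelled risen genes. Of those that fell in WT, 401 also fell, which is 32.7% of the WT and 43.2% of the KO-labelled fallen genes. Opposite calls were made for 60 genes that rose in WT and fell in the KO-labelled EBs, and for 38 that fell in WT and rose there.

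Taken over the same members, list medians in WT and in KO-labelled EBs were 3.27 and 2.31 on the log2 scale for macrophage genes, 2.49 and 1.57 for plasma proteins, 2.18 and 1.53 for collagens, 1.98 and 2.84 for interferon response and -6.23 and -6.38 for globins. Medians over the same members were also set side by side for sarcomere genes (0.13 in WT and -1.97 in KO-labelled EBs), red cell genes (-2.69 and -0.87), apolipoproteins (0.78 and -0.13), pluripotency genes (0.61 and 1.91) and ribosomal proteins (-0.60 and -0.06). These gaps were not tested, since each is a difference between single libraries.

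Single genes showed the levels behind the gaps. Afp stood at 4602 and 147 RPKM at weeks 2 and 1 in WT, and at 1096 and 894 in the KO-labelled EBs. Trf stood at 809 and 14.5 RPKM in WT and at 155 and 129 in the KO-labelled EBs, so that both genes began week 1 higher there. Alb rose in both, to 192 and 255 RPKM at week 2, against 0.0945 and 0.42 at week 1, and so did Spp1 (1126 and 6.79 RPKM in WT, 468 and 3.24 in the KO-labelled EBs). Myh6, a myosin heavy chain of heart muscle, stood at 81.8 and 89.9 RPKM in WT and at 32.4 and 383 in the KO-labelled EBs. Igf2 stood at 2517 and 701 RPKM in WT and at 419 and 4.55 in the KO-labelled EBs.

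**Figure D4:**
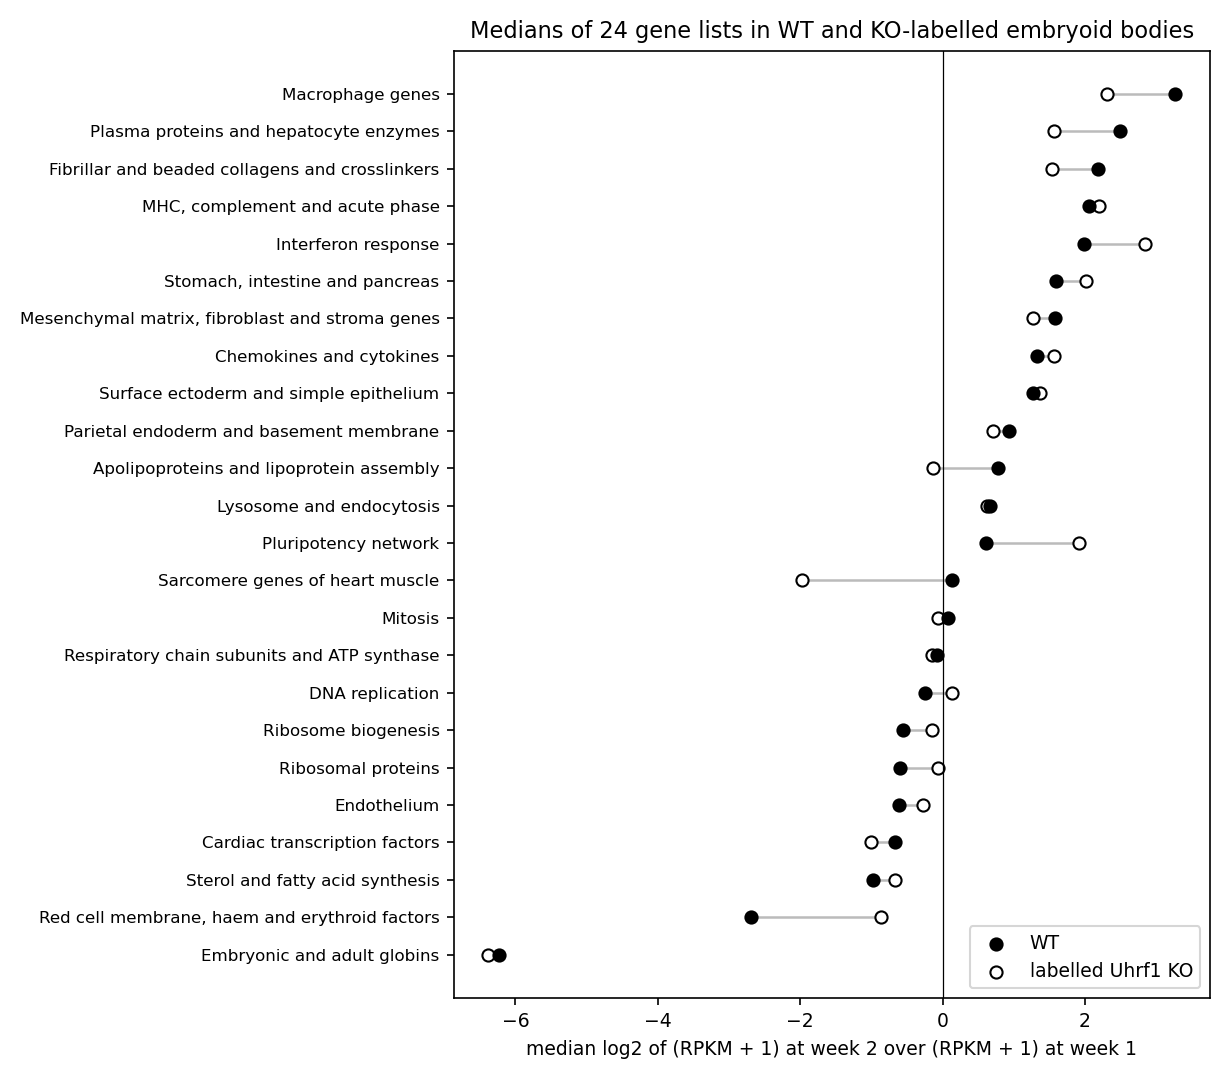
Median log2 of RPKM + 1 at week 2 over week 1 (horizontal axis) for 24 gene lists, over the members detected in WT, in WT EBs (filled points) and in EBs labelled Uhrf1 KO (open points), joined by grey lines. Sarcomere genes lie at 0.13 in WT and -1.97 in the KO-labelled EBs, and globins at -6.23 and -6.38.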

How the data were processed

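RNA of WT EBs at weeks 2 and 1 was compared. Per the labels and the study's methods, poly(A) RNA was fragmented, copied with random hexamers and sequenced, and the submitters' processing notes name Cufflinks 1.1.0 for the RPKM of RefSeq genes, TopHat 1.1.4 and Bowtie 0.12.7 for alignment, the build mm9, and SAMtools 0.1.18. On deposit the authors gave each level as log2 after adding 1 to the RPKM. RPKM divides by transcript length and total reads, so one abundant class lowers all other levels, and levels of very short RNAs are unstable. Strand was not used in any stated step, so antisense partners cannot be told apart.

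Values were turned back to RPKM without rescaling. Genes at 1 RPKM or more in either week were compared and called at 1.5-fold of RPKM + 1. Depth was estimated from the steps of low values over 5676 genes with 1 annotated transcript of 800 to 6000 nt, and 95% intervals were made for 12007 genes. Lengths and coordinates are those of GENCODE M1 (mm9), found for 19738 genes. Promoter letters are from RefSeq (GRCm38.p6), placed on mm9 by exact match. No p-value was computed, since each group has 1 library. The calls, intervals and depth estimate were checked on simulated data.

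The genes compared and the 57 gene lists were chosen with earlier results of these data known. The rule for named genes took the 12 highest and 12 lowest log2 folds at 5 RPKM or more, 4 genes per list, those that changed most, the 10 most abundant genes and Uhrf1. Other named genes were chosen after their values were seen. A pseudocount of 0.1, other filters, 3 scalings and a 2-fold threshold were tried. Intervals were computed with scipy 1.17.1, tables with pandas 2.3.3 and numpy 2.4.6, and plots with matplotlib 3.10.9, under Python 3.11.15. Some named genes are not reported here.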

Additional observations from a re-analysis of the deposited data

Results flagged for a closer look

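For 12 named genes the change from week 1 to week 2 ran one way in WT and the other way in the EBs labelled Uhrf1 KO, past 1.5-fold in both. The difference was not tested, since each group is 1 library. Among the small RNAs the log2 fold of RPKM + 1 in WT was 9.07 for Snord52, 8.09 for Snord57, 6.74 for Rnu73b, 6.35 for Mir1982, -10.23 for Snord58b and -9.16 for Snord65. In the KO-labelled EBs it was -1.59, -9.41, -0.59, -0.59, 11.50 and 11.43 in the same order. Rnu73b and Mir1982 thus only just passed 1.5-fold there, and their fall was not tested. Each of these small RNAs was listed at 0 in 1 of the WT weeks, so the WT values depend on the added 1. None of these values is a measure of the size of a change. The ventricular light chain Myl2 had a log2 fold of 1.88 in WT and -2.68 in the KO-labelled EBs, and the smooth muscle light chain Myl9 of 2.32 and -0.83. Apoa4, an apolipoprotein of yolk sac and gut, had 3.38 and -0.81, and the endocytic receptor Cubn 2.01 and -0.92. The platelet chemokine Ppbp had 1.40 and -2.03, and Dnmt3b, a de novo DNA methyltransferase, -0.97 and 1.63.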

How the results depend on the processing

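The main comparison gave 2615 risen and 1228 fallen genes. With a 2-fold threshold 1549 rose and 432 fell, with a filter at 5 RPKM 1521 rose, and scaling to the RPKM total left 685 fallen genes (768 with globins left out of the total). Under the other settings both counts stayed within 1.5 times: a pseudocount of 0.1, no filter, scaling by the median of ratios, intervals beyond 1.5-fold (2489 and 970), and small RNAs and histones left out (2601 and 1154). No called gene among those named by the rule changed direction under the pseudocount or any scaling. Scaling to the RPKM total raised all 57 list medians by more than 0.1 and turned the sign of 8 of them. Scaling by the median of ratios left all 57 within 0.1. A pseudocount of 0.1 moved 30 list medians by more than 0.1. Judged by counting error, it also moved the log2 fold of 162 genes named by the rule and left 86 about the same. With a 2-fold threshold the risen count of 17 lists and the fallen count of 18 lists changed by more than 1.5 times. No paired analysis was possible because each group holds 1 library and no replicate numbers are shared. With no replicates, how far cultures or preparations of 1 stage differ is unknown and no library could be left out. Genes with under about 10 reads in 1 week, such as Alb and C1qa at week 1, have wide intervals.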
